A study of Mus musculus with 6 samples.

Results

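The genes described here are 36 cell cycle genes of the mouse, taken by name from a table of RNA-seq read counts with 43430 gene IDs, and all 36 were found in it. They fall into 15 DNA replication genes (Rrm2, Mcm2 to Mcm7, Pcna, Tyms, Ccne1, Ccne2, E2f1, Cdc6, Cdt1 and Gins2) and 21 mitotic genes (Mki67, Top2a, Cdk1, Ccnb1, Ccnb2, Ccna2, Cdc20, Birc5, Bub1, Bub1b, Aurka, Aurkb, Plk1, Kif11, Kif20a, Kif23, Cenpe, Cenpf, Tpx2, Nusap1 and Prc1). The cells came from the lungs of male C57BL/6J mice, 9 to 11 weeks old, and were fibroblasts gated by flow on PDGFRA, a growth factor receptor of lung fibroblasts (the labels of the hypercapnia samples write PDGFR+). The title of the series is about Wnt production, and its labels state no question about the cell cycle. The comparison set 9 mice kept in room air against 9 mice that breathed 10% CO2 with normal oxygen for 10 days, which is called hypercapnia here. Each library pooled the cells of 3 mice, so each group had 3 libraries (M1 to M3 in room air, M4 to M6 in hypercapnia), and a library gives the average of its pool.

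A dividing cell copies its DNA in S phase and separates the copies in mitosis, and the genes of the 2 steps are switched on in turn. Before S phase, ORC, Cdc6 and Cdt1 load the ring of Mcm2 to Mcm7 onto DNA; cyclin E with its kinase then helps to start replication, Gins2 is part of the active helicase, Pcna is the sliding clamp of the DNA polymerases, and Rrm2 and Tyms supply nucleotides. The mitotic genes encode cyclins A and B and their kinase Cdk1, kinases of the spindle (Plk1, Aurka, Aurkb), checkpoint proteins (Bub1, Bub1b), the activator of the ubiquitin ligase that ends mitosis (Cdc20), motors and bundlers of microtubules (Kif11, Kif20a, Kif23, Prc1, Tpx2, Nusap1) and kinetochore proteins (Cenpe, Cenpf). Transcripts of the mitotic class accumulate in G2 and M and are close to absent from resting cells, while several replication genes keep a basal level in resting cells. Most fibroblasts of an adult lung are resting.

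In these libraries the replication genes other than Gins2 had reads in every library, while 9 of the 21 mitotic genes had too few reads to be tested. The summed level of the 15 replication genes was 146 ± 5.10 CPM (SD, n = 3; CPM are read counts scaled by library size) in room air against 171 ± 8.05 CPM in hypercapnia, a ratio of 1.17. Of these sums, Pcna and Mcm4 alone held 36.7 and 35.4 CPM in room air and 37.3 and 38.2 CPM in hypercapnia. With each of the 15 genes weighed alike, the mean log2 CPM was 2.33 ± 0.166 in room air against 2.74 ± 0.174 in hypercapnia. The summed level of the 21 mitotic genes was 22.3 ± 4.07 CPM in room air against 45.6 ± 14.7 CPM in hypercapnia, a ratio of 2.05. No member was called changed: edgeR's quasi-likelihood test gave 0 of 27 tested members with an adjusted p under 0.05, where 1.22% of all 13005 tested genes passed (0.523% higher and 0.7% lower in hypercapnia). At an unadjusted p under 0.05 there were 6 members, all higher in hypercapnia, against 12% of all tested genes in either direction and 6.54% in that direction. Of the 6, only Mcm2 and Prc1 reached the minimum of the low-count filter, described below, in all 3 room air libraries. This count of 6 is therefore a description only. DESeq2 and limma-voom also called 0 members, where 3.52% of the 12369 genes with a DESeq2 adjusted p and 1.51% of 13005 genes by limma-voom passed. A count of 0 among so few members lies near each of these shares.

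The total count per library ran from 8999780 to 10198336, so that 3 counts, the most that a count of 0 allows, corresponded to between 0.281 and 0.354 CPM on the scaled library sizes used for all CPM here. All 15 replication genes and 12 of the 21 mitotic genes passed edgeR's filter on low counts. Of the 12 mitotic genes tested, 9 were past the filter's minimum in fewer than 3 room air libraries, and 7 of those 9 were past it in all 3 hypercapnia libraries. The same held in room air for 3 replication genes, Ccne1, Cdt1 and Gins2. A gene that passes only through its higher group is bound to differ, so counts and medians over the tested mitotic genes describe them and support nothing. The other 9 mitotic genes, Cdk1, Ccnb1, Birc5, Bub1, Aurkb, Plk1, Kif23, Cenpe and Cenpf, had between 15 and 68 counts over the 6 libraries and are given as counts without a test. In sorted bulk cells, fewer cells of a type and less RNA per cell cannot be told apart.

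**Figure D1:**
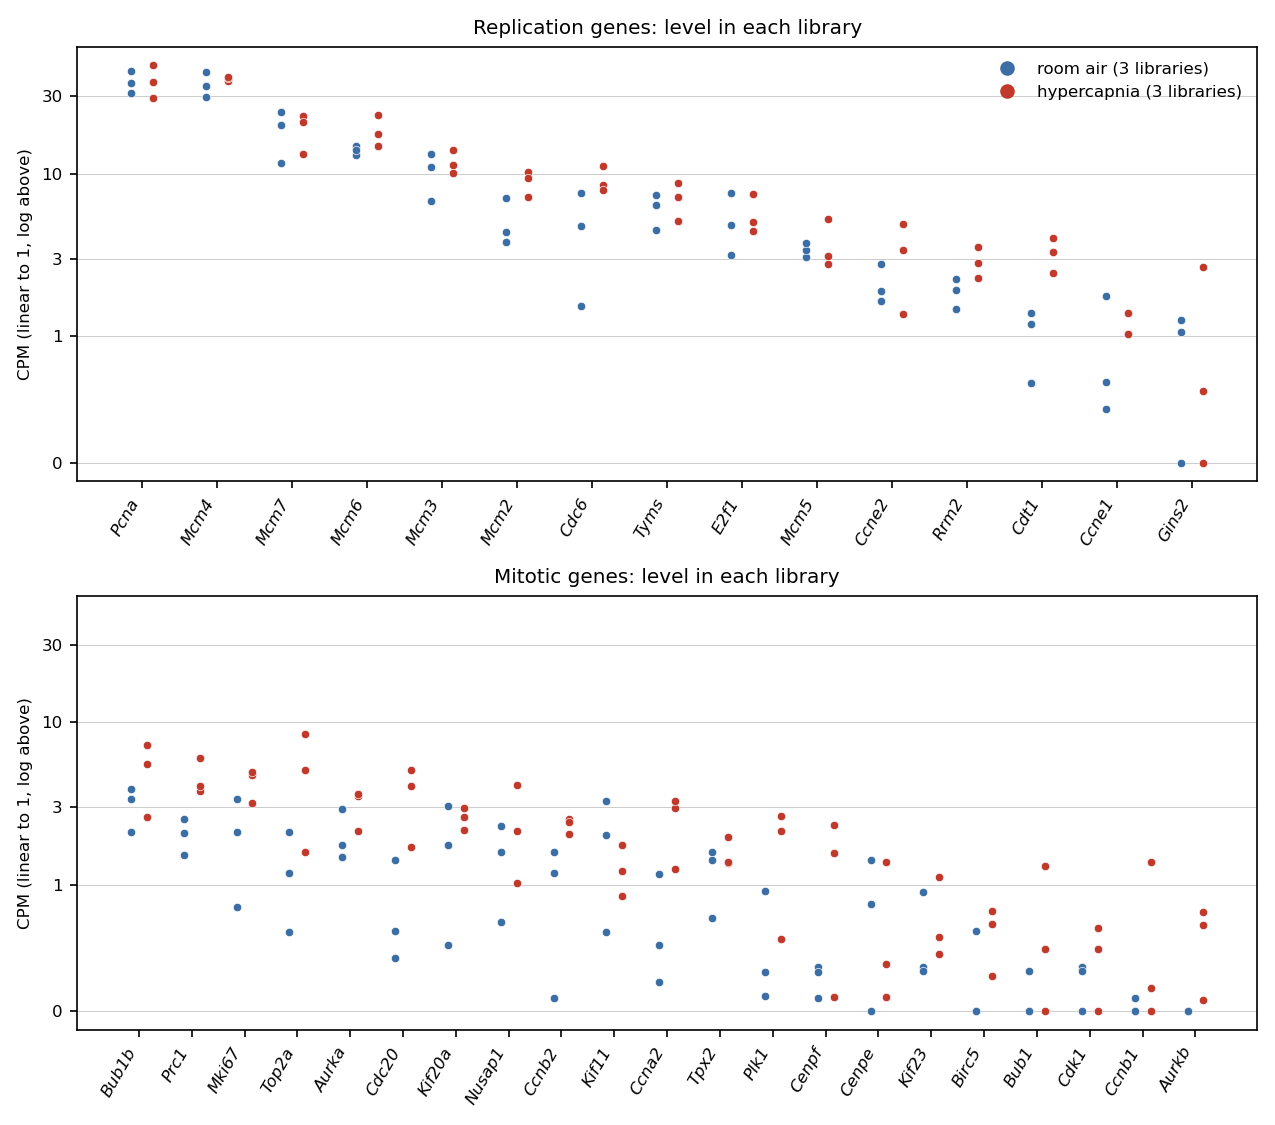
Level of each gene in each library, in CPM on an axis that is linear up to 1 and logarithmic above. Each point is 1 library (blue room air, red hypercapnia, 3 each), with replication genes in the upper panel and mitotic genes in the lower panel, both ordered by mean level. Pcna and Mcm4 stand near 37 CPM and no mitotic gene is above 8.47 CPM in any library.

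Per length of its exons, Pcna had the highest mean level over the 6 libraries, at 15.4 CPM per kilobase, followed by Mcm4 at 10.3, Mcm7 at 4.21, Mcm6 at 3.46 and Mcm3 at 2.93. The highest mitotic genes on this scale, Cdc20 at 1.18 and Ccnb2 at 1.08 CPM per kilobase, took places 8 and 9 of 36. The lowest was Cenpf at 0.0519. The median level was 1.08 CPM per kilobase over the replication genes and 0.318 over the mitotic genes. Places 28 to 36 were all held by mitotic genes, from Kif11 at 0.22 CPM per kilobase down.

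The Mcm genes encode the subunits of the replicative helicase ring. Mcm4 (ENSMUSG00000022673, chr16:15623897-15637400, GENCODE M21 on the mm10 build) stood at 42.1, 29.6 and 34.6 CPM in M1 to M3 and at 36.9, 38.6 and 39.1 CPM in M4 to M6. The hypercapnia libraries lay inside the room air range, and the edgeR log2 fold change was 0.11 with a 95% interval of -0.24 to 0.46. Mcm7 read 11.7, 23.9 and 19.7 CPM in M1 to M3 and 13.1, 22.5 and 20.8 CPM in M4 to M6, with the lowest library of each group, M1 and M4, nearly level. Its log2 fold change was 0.03 (95% interval -0.60 to 0.66), and 12.6% of its exonic bases are shared with other genes. Mcm6 read 14.7, 12.9 and 13.9 CPM against 17.5, 22.9 and 14.7 CPM, so that the groups met at 14.7 CPM. Mcm3 read 13.1, 10.9 and 6.79 CPM against 13.9, 11.3 and 10.0 CPM and overlapped. The edgeR log2 fold changes of Mcm6 and Mcm3 were 0.41 ± 0.21 (SE) and 0.19 ± 0.29, with adjusted p of 0.501 and 0.868.

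Mcm2 was the Mcm gene whose groups did not overlap. Mcm2 (ENSMUSG00000002870, chr6:88883474-88898780) read 3.78, 7.04 and 4.35 CPM in M1 to M3 and 10.3, 9.35 and 7.22 CPM in M4 to M6, and the closest libraries, M2 and M6, differed by little. Its edgeR log2 fold change was 0.82 ± 0.33 (SE), with an unadjusted p of 0.0328 and an adjusted p of 0.346. Mcm5, the least abundant subunit here, was low and level, at 3.38 ± 0.324 CPM (SD, n = 3) in room air against 3.70 ± 1.35 CPM in hypercapnia.

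The largest replication fold changes were those of the 2 factors that load the helicase. Cdt1 (ENSMUSG00000006585, chr8:122568015-122573554) read 1.18, 0.63 and 1.38 CPM in M1 to M3 and 3.30, 4.04 and 2.44 CPM in M4 to M6. All hypercapnia libraries were above all room air libraries, and edgeR gave a log2 fold change of 1.61 ± 0.55 (SE), an unadjusted p of 0.0147 and an adjusted p of 0.24. Cdt1 rested on 125 counts in all. Cdc6 (ENSMUSG00000017499, chr11:98907801-98923940) read 1.53, 4.73 and 7.53 CPM in M1 to M3 and 11.1, 8.47 and 7.97 CPM in M4 to M6. The room air libraries were spread over a wide range and M3 came close to M6; the edgeR log2 fold change was 0.98 ± 0.46 (SE) and the adjusted p 0.438.

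Pcna, which also serves in DNA repair, differed the least of all replication genes. Pcna (ENSMUSG00000027342, chr2:132249162-132253314) read 42.8, 31.2 and 36 CPM in M1 to M3 and 46.4, 28.9 and 36.6 CPM in M4 to M6. The groups covered the same range, and the edgeR log2 fold change was 0.02 with a 95% interval of -0.40 to 0.45. Rrm2, the regulated subunit of ribonucleotide reductase (ENSMUSG00000020649, chr12:24708241-24714146), read 2.24, 1.47 and 1.91 CPM in M1 to M3 and 3.53, 2.26 and 2.81 CPM in M4 to M6. The groups of Rrm2 were separated only by the step from 2.24 CPM in M1 to 2.26 CPM in M5, and edgeR gave 0.61 ± 0.49 (SE) with an adjusted p of 0.714. Tyms, E2f1, Ccne1, Ccne2 and Gins2 overlapped between the groups, with log2 fold changes from 0.11 for E2f1 to 0.62 for Ccne2 and adjusted p from 0.755 to 0.954. The value of Gins2 is uncertain, since 67.3% of its exonic bases are shared with Gse1 on the other strand and M1 and M4 held 0 of its 55 counts; Ccne2 shares 17.4% with Ints8.

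E2F factors bind the promoters of replication genes. The 3 replication genes printed here had the smallest p among those with E2F letters in the RefSeq promoter window, which runs from 250 bases before to 50 bases after the start of the gene (GRCm38.p6). The letters searched, on both strands, were TTTCCCGC, TTTGGCGC, TTCCCGCC and TTGGCGCC, and capitals mark each match. The runs lie at chr8:122568035-122568064 (plus strand) for Cdt1, chr11:98907961-98908160 (plus) for Cdc6 and chr1:128359696-128359895 (minus) for Mcm6.
Cdt1: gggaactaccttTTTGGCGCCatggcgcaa
Cdc6: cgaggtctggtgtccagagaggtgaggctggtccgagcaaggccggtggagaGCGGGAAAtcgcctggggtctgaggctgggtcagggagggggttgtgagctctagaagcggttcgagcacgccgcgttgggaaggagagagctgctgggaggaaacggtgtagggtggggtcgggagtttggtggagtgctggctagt
Mcm6: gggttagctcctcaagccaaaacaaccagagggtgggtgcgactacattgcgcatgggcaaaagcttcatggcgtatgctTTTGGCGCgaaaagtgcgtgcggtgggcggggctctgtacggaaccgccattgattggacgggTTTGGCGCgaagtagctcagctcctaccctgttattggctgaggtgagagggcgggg
The Cdt1 run holds 2 overlapping matches downstream of the start, and the Cdc6 run holds 1 match on the reverse strand, 138 bases before it. Mcm6 holds 2 matches, the nearer starting 47 bases before the start. A match is a description of the letters and not a binding site.

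Among the mitotic genes with enough reads to be tested, 11 of 12 had a positive log2 fold change, against 51.5% of all tested genes, and the exception was Kif11. Since 9 of these 12 were past the filter's minimum in fewer than 3 room air libraries, a positive sign was favoured in advance. This count supports nothing. Over all 36 genes, tested or not, the mean CPM was higher in hypercapnia for all 15 replication genes and for 19 of 21 mitotic genes, the exceptions being Kif11 and Cenpe. The median log2 fold change was 0.29 over the 15 replication genes and 0.86 over the 12 tested mitotic genes, beside 0.01 over all tested genes. The difference between the classes was not tested. The groups did not overlap, with hypercapnia higher, for 4 replication genes (Rrm2, Mcm2, Cdc6 and Cdt1) and 4 tested mitotic genes (Ccnb2, Ccna2, Cdc20 and Prc1), and the opposite was seen for 0 members. Over all tested genes, 9.28% had groups that did not overlap with hypercapnia higher, and 8.74% with hypercapnia lower. Ccnb2, Ccna2, Cdc20 and Cdt1 were past the filter's minimum in only 2, 1, 1 and 2 room air libraries. For these genes the comparison with all tested genes is a description only.

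**Figure D2:**
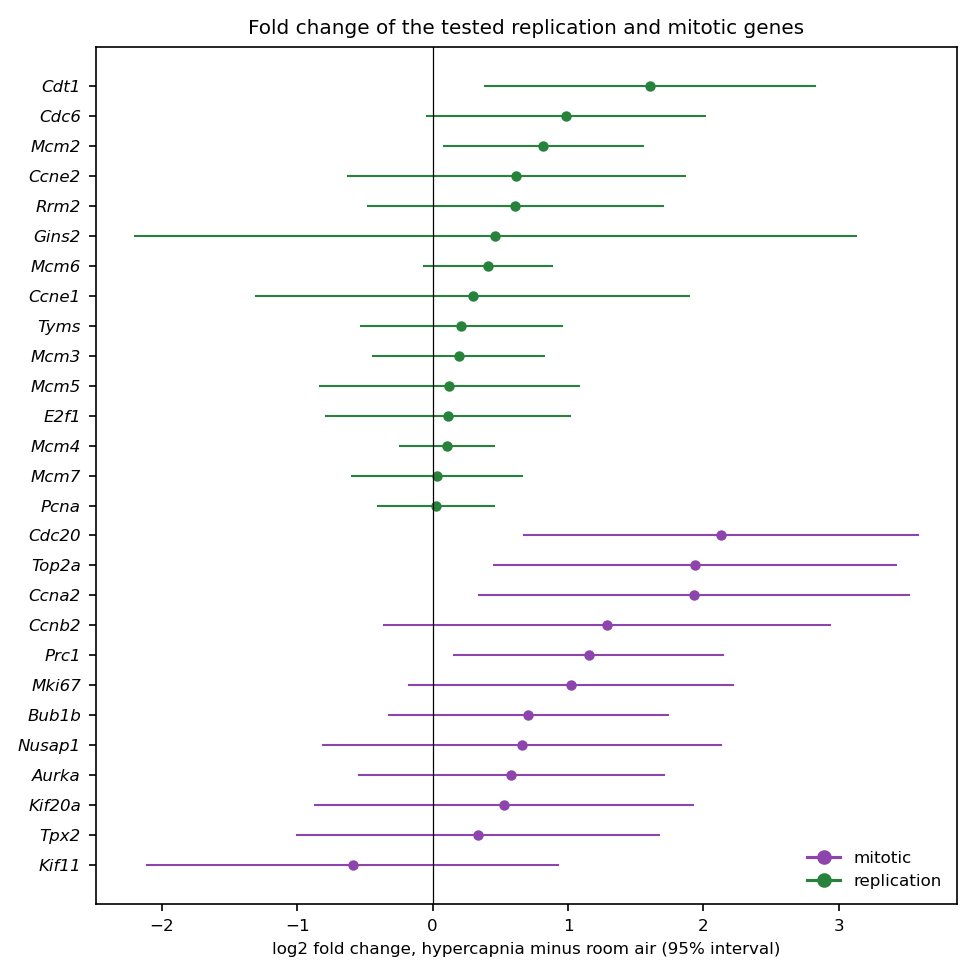
Log2 fold change, hypercapnia minus room air, of the 27 tested genes by edgeR, with points for the estimate and lines for the 95% interval (green replication, purple mitotic). The intervals of Mcm2, Cdt1, Cdc20, Top2a, Ccna2 and Prc1 lie above 0 before adjustment for the number of genes, and Kif11 is the gene with an estimate under 0. Cdt1, Cdc20, Top2a and Ccna2 were past the filter's minimum in fewer than 3 room air libraries, so their intervals are descriptions only.

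Cyclin A2 and the B cyclins drive entry into mitosis. Ccna2 (ENSMUSG00000027715, chr3:36564865-36572150) read 0.236, 0.525 and 1.17 CPM in M1 to M3 and 1.25, 2.95 and 3.28 CPM in M4 to M6. M3 and M4 were nearly level, and the edgeR log2 fold change was 1.93 ± 0.72 (SE) with an adjusted p of 0.288; 12.5% of its exonic bases are shared with Exosc9. Ccnb2 (ENSMUSG00000032218, chr9:70407692-70421547) read 1.18, 0.105 and 1.59 CPM in M1 to M3 and 2.05, 2.56 and 2.44 CPM in M4 to M6. The hypercapnia libraries were close together above a scattered room air group, and edgeR gave 1.29 ± 0.75 (SE) with an adjusted p of 0.55. Ccnb1 had 0, 0 and 1 counts in room air and 0, 14 and 2 in hypercapnia. Nearly all of its reads came from M5, and the pooled ratio was 14.8 with a 95% exact counting interval of 2.30 to 621. Cdk1, the kinase that these cyclins activate, had 6 counts in room air and 12 in hypercapnia, with 0 in M2 and in M4.

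Cdc20 had the smallest p of all members. Cdc20 (ENSMUSG00000006398, chr4:118432901-118437352) read 1.42, 0.42 and 0.637 CPM in M1 to M3 and 1.71, 4.04 and 5.06 CPM in M4 to M6. M5 and M6 stood well above the other libraries and M4 just above M1. Its edgeR log2 fold change was 2.13 ± 0.66 (SE), with an unadjusted p of 0.00821 and an adjusted p of 0.182. Top2a, the topoisomerase that untangles sister chromatids (ENSMUSG00000020914, chr11:98992943-99024189), read 1.18, 0.63 and 2.12 CPM in M1 to M3 and 1.60, 8.47 and 5.06 CPM in M4 to M6. The groups overlapped, since M4 was under M3, and the log2 fold change was 1.94 ± 0.67 (SE) with an edgeR adjusted p of 0.248. Without the filter on low counts, edgeR gave Top2a an adjusted p of 0.0194, the lowest of its alternatives, which reached 0.736.

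Prc1, which bundles the microtubules of the central spindle (ENSMUSG00000038943, chr7:80294450-80316259), read 1.53, 2.1 and 2.55 CPM in M1 to M3 and 3.76, 4.04 and 6.00 CPM in M4 to M6. Of the tested mitotic genes it had the widest gap between the lowest hypercapnia and the highest room air library; edgeR gave 1.15 ± 0.45 (SE), an unadjusted p of 0.027 and an adjusted p of 0.316, and 11.1% of its exonic bases are shared with Rccd1. Mki67, the proliferation antigen Ki-67 (ENSMUSG00000031004, chr7:135689784-135716361), read 0.826, 3.36 and 2.12 CPM in M1 to M3 and 3.19, 4.72 and 4.97 CPM in M4 to M6. M2 exceeded M4, so the groups overlapped, and the edgeR adjusted p was 0.504. Bub1b, a spindle checkpoint protein, read 2.12, 3.89 and 3.4 CPM against 2.62, 5.51 and 7.22 CPM. The kinase gene Aurka read 1.77, 2.94 and 1.49 CPM against 3.53, 3.64 and 2.16 CPM. Both overlapped, with edgeR log2 fold changes of 0.71 ± 0.47 (SE) and 0.58 ± 0.51.

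Among the motors and spindle proteins, Kif11, Kif20a, Tpx2 and Nusap1 overlapped between the groups and had log2 fold changes from -0.59 ± 0.69 (SE) for Kif11 to 0.66 ± 0.67 for Nusap1. Kif20a shares 29.3% of its exonic bases with Cdc23 and is uncertain for that reason. Of the genes under the filter, Aurkb, the kinase of the chromosomal passenger complex, had 0 counts in the 3 room air libraries and 6, 8 and 1 in hypercapnia. Set against a floor of 3 counts over the room air group, Aurkb was at least 4.63-fold higher with its hypercapnia counts taken as they stand, and the lower end of the 95% exact counting interval of the pooled ratio was 3.32. M6 held only 1 of the 15 counts. Its partner Birc5 (survivin) had 6 counts in room air, all in M3, and 17 in hypercapnia.

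The kinetochore and checkpoint genes showed the same unequal libraries. Bub1 had 0, 0 and 3 counts in room air and 0, 5 and 14 in hypercapnia, a pooled ratio of 5.87 (95% exact counting interval 1.73 to 30.9). Cenpf had 3, 3 and 1 counts in room air and 1, 16 and 25 in hypercapnia, a pooled ratio of 5.56 (2.47 to 14.7). In both genes M4 held as few counts as the lowest room air library. The kinase gene Plk1 had 1, 3 and 9 counts against 5, 27 and 23, and M4 again lay inside the room air range. Kif23 (15 counts in room air and 22 in hypercapnia) and Cenpe (20 and 19) showed no such gap. These intervals cover counting error only and leave out the spread between libraries.

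The 3 mitotic genes printed here had the smallest p among those whose window holds the letters of the cell cycle homology region (CHR), TTTGAA or TTCGAA on either strand. Mitotic genes are known to be repressed in resting cells through the CHR and activated through CCAAT boxes, which NF-Y binds, so both are in capitals. The runs lie at chr4:118437334-118437533 (minus strand) for Cdc20, chr11:99024180-99024379 (minus) for Top2a and chr7:80294261-80294460 (plus) for Prc1.
Cdc20: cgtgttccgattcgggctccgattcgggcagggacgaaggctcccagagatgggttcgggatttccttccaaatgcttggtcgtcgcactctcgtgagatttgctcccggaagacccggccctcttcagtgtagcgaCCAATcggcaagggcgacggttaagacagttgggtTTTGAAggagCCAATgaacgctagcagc
Top2a: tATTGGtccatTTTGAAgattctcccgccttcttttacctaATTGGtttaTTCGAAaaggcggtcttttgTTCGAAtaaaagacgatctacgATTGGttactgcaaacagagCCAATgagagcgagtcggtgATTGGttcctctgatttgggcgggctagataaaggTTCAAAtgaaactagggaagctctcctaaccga
Prc1: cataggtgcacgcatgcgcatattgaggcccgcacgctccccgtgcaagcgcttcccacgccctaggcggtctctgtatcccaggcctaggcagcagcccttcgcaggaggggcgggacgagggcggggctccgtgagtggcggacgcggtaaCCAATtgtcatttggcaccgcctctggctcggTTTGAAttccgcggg
The nearest CHR letters start 18 bases before the start in Cdc20, 23 bases before it in Top2a and 5 bases before it in Prc1. The Top2a run holds 4 CHR and 5 CCAAT matches, the Cdc20 run 1 and 2, and the Prc1 run 1 of each.

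The table of promoters held a window for 12 replication and 17 mitotic genes, and for 27025 genes in all. E2F letters stood in 6 of 12 replication genes (50%, 95% exact interval 21.1 to 78.9), in 2 of 17 mitotic genes (11.8%, 1.46 to 36.4) and in 4.34% of all genes. In the shorter window, from 100 bases before the start, the share of replication genes was 3 of 12 (25%, 5.49 to 57.2). CHR letters stood in 2 of 12 replication genes (16.7%, 2.09 to 48.4), in 13 of 17 mitotic genes (76.5%, 50.1 to 93.2) and in 21.7% of all genes; in the shorter window the replication share was 1 of 12 (8.33%). CCAAT letters stood in 7 of 12 replication genes (58.3%), in 15 of 17 mitotic genes (88.2%) and in 41.1% of all genes. The 2 mitotic genes with E2F letters were Ccnb1 and Cdk1, and the 2 replication genes with CHR letters were Mcm2 and Mcm7. No window was held for Mcm4, Ccne2, Gins2, Ccna2, Aurkb, Kif20a and Tpx2.

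**Figure D3:**
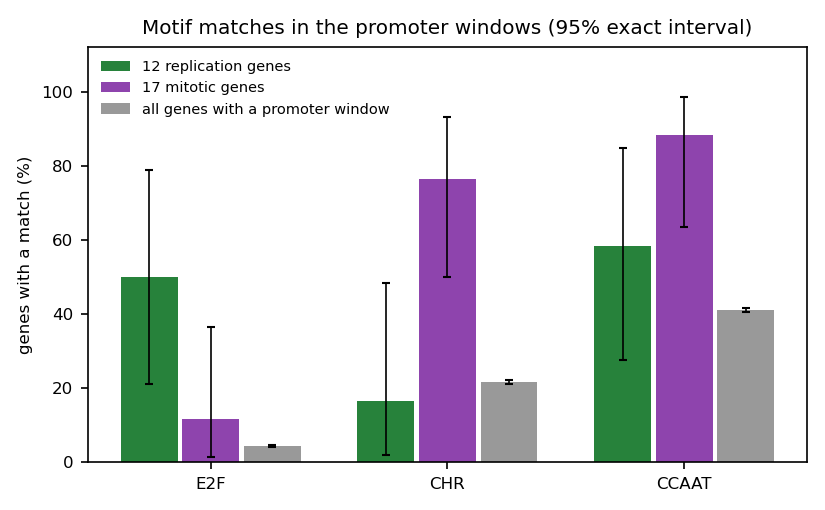
Share of genes, in percent, whose promoter window holds at least 1 match to the E2F, CHR or CCAAT letters, for 12 replication genes (green), 17 mitotic genes (purple) and 27025 genes with a window (grey), with 95% exact intervals. E2F letters are most frequent in the replication genes (50%) and CHR letters in the mitotic genes (76.5%).

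The mitotic level differed between the libraries of a group. The summed mitotic level was 20.1, 19.8 and 27.0 CPM in M1 to M3, 28.7 CPM in M4, and 55.4 and 52.7 CPM in M5 and M6. The hypercapnia library M4 thus lay next to the room air library M3, and as raw counts M4 held 252 and M3 254. M4 was the lowest hypercapnia library for 17 of the 21 mitotic genes, and M5 or M6 was the highest of all 6 libraries for 17 of them. Without M4 the hypercapnia mean was 54.0 CPM, and without M5 it was 40.7 CPM. The sum of the replication genes showed another order. It was 149, 140 and 148 CPM in M1 to M3 and 176, 174 and 161 CPM in M4 to M6. M4 was the highest library for 6 of the 15 genes and the lowest hypercapnia library for 6. The order held for the sum only. By mean log2 CPM over the 15 genes, M4 to M6 stood at 2.64, 2.94 and 2.65, with M4 lowest and M6 nearly level.

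**Figure D4:**
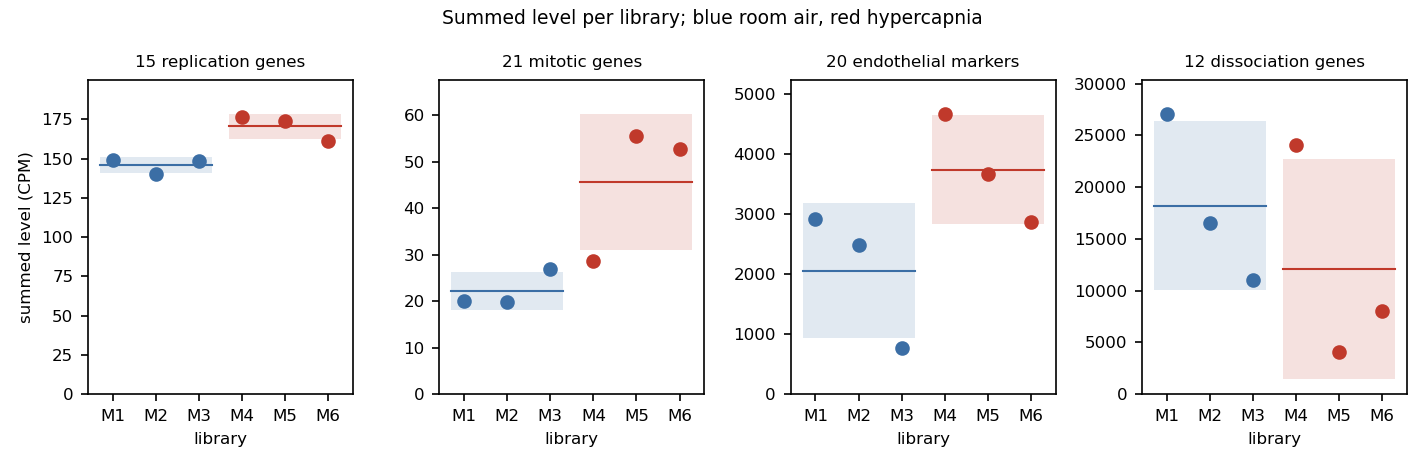
Summed level in CPM per library for the replication genes, the mitotic genes, the 20 endothelial markers and the 12 dissociation genes, each on its own axis from 0 (points libraries, lines group means, bands ± 1 SD, n = 3). The mitotic sum is high in M5 and M6, where the dissociation sum is lowest, at 4108 and 8022 CPM.

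Other measures moved with these libraries. Dissociation genes, immediate early and heat shock genes such as Fosb, Jun and Hspa1a that are induced while tissue is taken apart, summed to 27101, 16558 and 10990 CPM in room air and to 24108, 4108 and 8022 CPM in hypercapnia, so that M5 and M6 were lowest where the mitotic sum was highest. All 12 were tested, and 11 had a negative log2 fold change (median -0.60). Of the 12, 0 were called by edgeR (1 at an unadjusted p under 0.05), and their part in the mitotic levels was not tested. The 20 endothelial markers summed to between 777 and 2912 CPM in room air and between 2869 and 4676 CPM in hypercapnia. All 20 had a positive log2 fold change (median 0.88), 0 were called by edgeR and 13 had an unadjusted p under 0.05. None of them was at 0 in a library, Pecam1, the endothelial adhesion molecule, standing at 169 ± 101 CPM (SD, n = 3) in room air against 308 ± 81.7 CPM in hypercapnia. M4 had the highest endothelial sum and the lowest mitotic sum of its group. M5, next in endothelial sum at 3677 CPM, had the highest mitotic sum of all libraries, at 55.4 CPM. Which cells held the mitotic transcripts was not tested.

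The sorted cell type was clear in all libraries: the 8 fibroblast markers summed to between 24041 and 27318 CPM, and Pdgfra itself had 3562 ± 209 CPM (SD, n = 3) in room air against 2971 ± 419 CPM in hypercapnia, with an edgeR adjusted p of 0.383. Immune markers summed to between 11.6 and 61.9 CPM over the 6 libraries, mostly Lyz2; Ptprc, the pan-leukocyte marker, had 2 counts in all, and 18 of the 20 immune markers were too low to be tested. Epithelial markers summed to between 501 and 821 CPM with Epcam at no more than 2.24 CPM, mural markers to between 638 and 734 CPM with Pdgfrb at 158 ± 8.97 and 146 ± 26.1 CPM, and mesothelial markers to between 127 and 274 CPM with Msln at 4.69 ± 2.04 and 7.42 ± 5.54 CPM. Of these lists 1 gene was called: Upk1b, a uroplakin of mesothelium, fell by 0.73 ± 0.13 (SE) on the log2 scale, with an edgeR adjusted p of 0.0317. Immune, epithelial and endothelial sums overlapped between the groups (the endothelial sums did not once composition factors were left out), mural sums were higher and mesothelial sums lower in hypercapnia without overlap, and their part in the cell cycle levels was not tested. The genes of these lists did not share a direction: 5 of 10 tested mural markers had a positive log2 fold change (median 0.18), and so did 3 of 4 tested mesothelial markers (median 0.77), all but Upk1b, which made up 226 of the mean mesothelial sum of 242 CPM in room air and 137 of 167 CPM in hypercapnia.

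The other genes of the pathway were taken from 7 lists (other replication, other mitosis, cyclins and kinases of G1, kinase inhibitors, E2F and pocket proteins with the DREAM complex, p53 targets, and DNA damage checkpoint). edgeR tested 139 of them and called 0, with 20 (14.4%) at an unadjusted p under 0.05, beside 12% of all tested genes. DESeq2 called 5 of the 128 to which it gave an adjusted p (3.91%, beside 3.52% of all genes) and limma-voom 2 of 139 (1.44%, beside 1.51%), both near the background. Of the other replication genes 31 of 42 tested had a positive log2 fold change (median 0.15), and of the other mitotic genes 21 of 32 (median 0.26). Ndc80, Kif15, Kif22 and Ckap2 of the other mitotic genes were past the filter's minimum in 0 room air libraries. The same held for Uhrf1 of the other replication genes, and further genes were past it in fewer than 3. Counts and medians over these lists therefore describe them and support nothing. The remaining medians were 0.02 for 12 cyclins and kinases of G1, -0.17 for 6 kinase inhibitors, 0.05 for 16 E2F, pocket and DREAM genes, -0.13 for 16 p53 targets and 0.07 for 15 checkpoint genes, beside 0.01 for all tested genes.

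**Figure D5:**
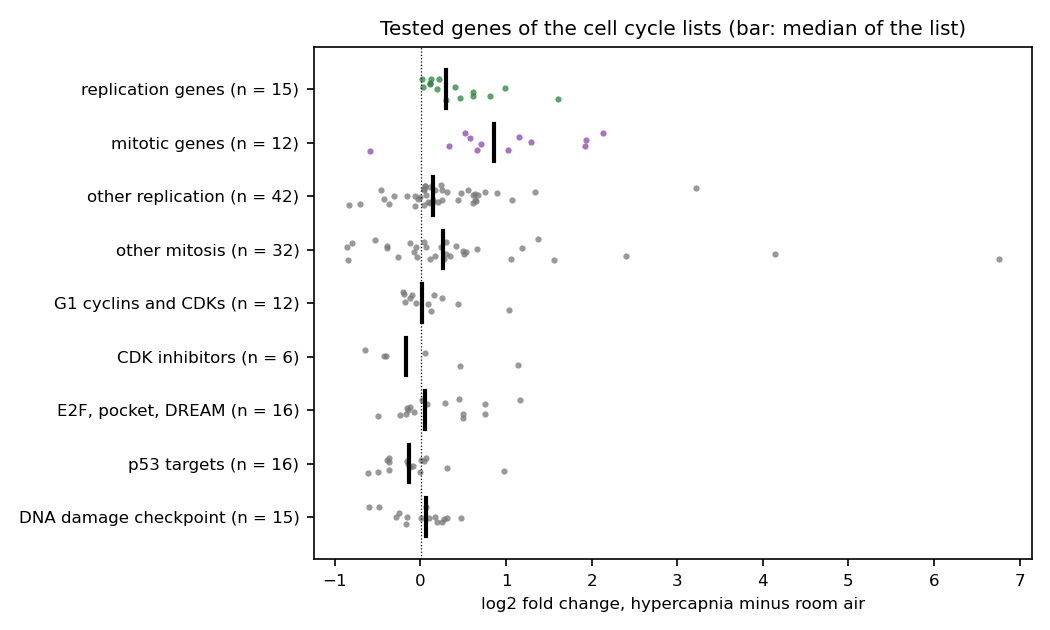
Log2 fold change by edgeR, hypercapnia minus room air, of the tested genes of each list (points genes, bars the list's median). The medians of the replication and mitotic members are 0.29 and 0.86, beside 0.26 for the other mitotic genes. Of the 12 tested mitotic members, 9 were past the filter's minimum in fewer than 3 room air libraries, so their median is a description only. The median of the other mitotic genes is a description too, since several of them, Ndc80 included, were past that minimum in 0 room air libraries. The rightmost point, Ndc80, had no count in room air, so its fitted value depends on the model and is no measured fold.

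Within these lists the named genes are those with the smallest p. Lig1, the ligase that joins Okazaki fragments, read 8.49, 6.31 and 13.1 CPM in M1 to M3 and 17.5, 23.9 and 17.2 CPM in M4 to M6. The groups did not overlap, and edgeR gave 1.07 ± 0.28 (SE) with an adjusted p of 0.117. DESeq2 gave an adjusted p of 0.0239. Over the alternatives it ran from 0.00203, in edgeR without the filter on low counts, to 0.435. Uhrf1, which couples DNA methylation to replication, had 0.177 ± 0.306 CPM (SD, n = 3) in room air against 1.80 ± 0.182 CPM in hypercapnia, with an edgeR adjusted p of 0.194. Uhrf1 was past the filter's minimum in 0 room air and 3 hypercapnia libraries, so its test is a description only. Pole4, a small subunit of DNA polymerase epsilon, had a log2 fold change of -0.46 ± 0.16 (SE) and an edgeR adjusted p of 0.235.

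Ndc80, an outer kinetochore protein, had 0 counts in M1 to M3 and 11, 17 and 14 counts in M4 to M6. Set against a floor of 3 counts over the room air group, it was at least 13.0-fold higher with its hypercapnia counts taken as they stand, and the lower end of the 95% exact counting interval of the pooled ratio was 10.1. The edgeR adjusted p was 0.0622; it was 0.0241 by limma-voom, 0.0421 with robust dispersion and 0.0111 without the filter on low counts, and over all alternatives that gave one it ran from 0.0111 to 0.25. All hypercapnia libraries, M4 included, held similar levels of Ndc80, from 1.25 to 1.67 CPM. The motor genes Kif15 and Kif22, chosen after their values were seen, had the same form: Kif15 had 2, 0 and 0 counts in room air and 14, 14 and 17 in hypercapnia, a pooled ratio of 20.8 (95% exact counting interval 5.44 to 177), and Kif22 stood at 0.431 ± 0.169 and 2.35 ± 0.466 CPM (SD, n = 3). Their edgeR adjusted p were 0.102 and 0.129. Ndc80, Kif15 and Kif22 were each past the filter's minimum in 0 room air and 3 hypercapnia libraries. They were tested only through their higher group, so their adjusted p values describe them and support nothing.

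Wee1, the kinase that holds Cdk1 inactive until mitosis, read 16.6, 9.25 and 7.0 CPM in M1 to M3 and 23.7, 24.1 and 27.1 CPM in M4 to M6. The groups were well apart, and edgeR gave 1.19 ± 0.28 (SE) with an adjusted p of 0.0848. It was under 0.05 by DESeq2 (0.00493) and limma-voom (0.0395). Over all alternatives the adjusted p ran from 4.4e-05, in edgeR without the filter on low counts, to 0.343. Kpna2, an importin that carries proteins into the nucleus, was on the other side, at 26.2 ± 4.15 CPM (SD, n = 3) in room air against 15.1 ± 2.21 CPM in hypercapnia. Its edgeR log2 fold change was -0.80 ± 0.19 (SE) and its adjusted p 0.0895. By DESeq2 the adjusted p was 0.0279. Over all alternatives it ran from 0.0114, again in edgeR without that filter, to 0.341.

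Upstream of S phase, the D cyclin gene Ccnd1 read 15.5, 19.3 and 6.37 CPM in M1 to M3 and 30.9, 30.4 and 23.0 CPM in M4 to M6. The groups did not overlap, and edgeR gave 1.03 ± 0.33 (SE) with an adjusted p of 0.194. By DESeq2 the adjusted p was 0.0439. Over the alternatives it ran from 0.000189, in edgeR without the filter on low counts, to 0.618. Of the exonic bases of Ccnd1, 23.4% are shared with another gene. Its partner kinase Cdk6 and the chaperone Cdc37, which folds such kinases, had edgeR log2 fold changes of 0.44 ± 0.24 (SE) and -0.19 ± 0.12. Of the kinase inhibitors, Cdkn1c (p57) had 0.46 ± 0.16, Cdkn2b (p15) 1.1 ± 0.52 and Cdkn2c (p18) -0.42 ± 0.16, all with an edgeR adjusted p of 0.257 or more. Cdkn2b read 2.11 ± 0.651 CPM (SD, n = 3) in room air against 4.65 ± 2.27 CPM in hypercapnia. Cdkn1a (p21), named after its values were seen, read 112.2, 48.7 and 34.8 CPM against 76.1, 22.3 and 27.0 CPM and overlapped; from highest to lowest its libraries stood in the order of the dissociation sum described above.

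Of the E2F, pocket protein and DREAM genes, Tfdp2, a partner of E2F, had a log2 fold change of 0.50 ± 0.17 (SE), E2f3 of -0.50 ± 0.18 and Lin9, a subunit of the MuvB core of DREAM, of 0.75 ± 0.36, with edgeR adjusted p of 0.227, 0.264 and 0.44. Of the p53 targets, Sesn1 had 97.2 ± 5.40 CPM (SD, n = 3) in room air against 75.5 ± 3.67 CPM in hypercapnia, and its edgeR adjusted p was 0.162. Zmat3 and Aen had log2 fold changes of 0.31 ± 0.15 (SE) and -0.49 ± 0.25. Of the checkpoint genes, Rad50, part of the complex that senses DNA breaks, stood at 110 ± 5.91 CPM in room air against 78.6 ± 3.90 CPM in hypercapnia. Rad50 had an edgeR adjusted p of 0.0638 and a DESeq2 adjusted p of 0.0115, between 0.0115 and 0.267 over all alternatives. Its partner Mre11a (0.32 ± 0.18, SE) and the kinase gene Atr (0.47 ± 0.22) had the other sign and an edgeR adjusted p of 0.549 and 0.442.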

How the data were processed

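The deposited values are unnormalized whole read counts per gene. The submitters' processing notes name the mm10 build, HTSeq, TopHat2 2.1.0, bcl2fastq 2.17.1.14 and FastQC; the annotation release and strand setting of the counting are not given in these sources, so reads of overlapping genes may be mixed. Column names gave the group of a library but not its sample. Between 0.0982% and 0.123% of a library's counts fell on IDs with no symbol. Replicates differed by more than sampling noise (chi-square per degree of freedom at least 12.6). Pairs of the same group ran from 12.6 (M5 and M6) to 31.2 (M4 and M5). Pairs from different groups ran from 12.6 (M1 and M4) to 41.9 (M1 and M5).

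Genes were tested with edgeR 4.0.16 (R 4.3.3): quasi-likelihood F-test, two-sided, TMM factors (0.943 to 1.05), filter by group with a minimum count of 10, and Benjamini-Hochberg adjustment over 13005 genes, with 4 residual degrees of freedom before moderation. Called means an adjusted p under 0.05. SE is the log2 fold change divided by the square root of F. CPM were computed from the counts with TMM factors; pooled ratios have exact intervals that assume counting error only. Libraries come from separate pools of mice. DESeq2 1.42.0, limma 3.58.1, other filters and factors, covariates and leaving out libraries were alternatives; the dissociation covariate and the fit without M1 and M4 were added after seeing the data. The method was tested on simulated data.

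The members and lists were chosen with earlier results of these data known. Values per library are given for each called member, each tested member whose groups did not overlap, and the 6 replication and 6 mitotic members with the highest mean CPM. From each cell cycle list come its called genes, or otherwise up to 3 with the smallest p. Positions come from GENCODE M21, which gave 42462 symbols, and promoters from RefSeq (GRCm38.p6). Of the 13 G1 cyclins and kinases, 12 were matched.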

Additional observations from a re-analysis of the deposited data

How the results depend on the processing

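Of 797 recomputed log2 fold changes of 51 named genes over 16 alternatives, 748 kept their direction and their side of the threshold, 23 passed the threshold in the same direction and 26 changed sign; all 26 belong to members that were not called. The count of called members was 0 in every alternative except for 1 (the mitotic gene Top2a) without the filter on low counts. The count over all genes was 159, and it was 756 without the filter, 436 by DESeq2, 255 with robust dispersion, and between 24 and 148 when 1 library was left out (24 without M2, 27 without M5, 42 without M6). The count over the companion cell cycle lists was 0, and it was 8 without the filter, 5 by DESeq2, 3 with robust dispersion, 2 by limma-voom, 1 with either covariate, 1 without M1 and M4, and 0 to 1 when 1 library was left out. The cause of these moves was not tested. The 8 companion genes called without the filter included Cdkn1a and the p53 target Btg2, whose groups overlapped. In that fit the SE of Cdkn1a was 0.16, against 0.48 in the main fit. The SE of Btg2 was 0.12 against 0.52. Adjusted p from the fit without the filter are therefore descriptions only.

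With the endothelial level as a covariate the log2 fold change turned to -0.30 for Mcm3, -0.074 for Pcna and -0.16 for Ccne1. With the dissociation covariate it turned to -0.27 for Mcm7, -0.057 for Tyms, -0.068 for Ccne2, -2.64 for Gins2 and -0.12 for Nusap1. Without M1 and M4 it turned to -0.29 for Mcm5, -0.024 for Mcm7, -0.052 for Pcna, -0.21 for E2f1 and, upward, 0.16 for Kif11. Leaving out 1 library turned the sign for 8 replication genes, whose lowest and highest values then were -0.035 (without M3) and 0.40 for Mcm3, -0.0062 (without M2) and 0.25 for Mcm4, -0.21 (without M4) and 0.29 for Mcm5, -0.21 (without M1, and also under 0 without M5 and M6) and 0.26 for Mcm7, -0.16 (without M4, and also under 0 without M2) and 0.18 for Pcna, -0.061 (without M2) and 1.10 for Ccne1, -0.15 (without M2, and also under 0 without M4) and 0.50 for E2f1, and -1.37 (without M5, and also under 0 without M1) and 1.03 for Gins2. The mitotic median was 0.86, 1.29 with the endothelial and 0.70 with the dissociation covariate, and the stricter filter left 3 mitotic genes. With 1 library left out the mitotic median ran from 0.58 (without M1) to 1.11 (without M4). Without both M1 and M4 it was 0.80.

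In windows from 100 bases before to 50 after the start, E2F letters stood in 25% of replication genes (50% in the longer window), 0% of mitotic genes and 2.44% of all genes, CHR letters in 8.33% of replication genes and 9.87% of all genes, and CCAAT letters in 26.3% of all genes. No paired analysis was possible because the sample titles share no replicate numbers between the groups. The 9 untested mitotic genes, under 70 counts each, have counting intervals but no test against the spread between libraries.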
